A study of Homo sapiens with 6 samples.

Results

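The genes described here are 39 genes of S phase and DNA replication, named by gene symbol and found as 39 rows of a count table of 30947 genes. They were measured by RNA sequencing in Cal27, a line from a human squamous cell carcinoma of the tongue, after DAZAP1 had been reduced with a lentivirus and in control cells. DAZAP1 encodes an hnRNP-type protein that binds RNA and acts in splicing and in translation. There were 2 groups, each of 3 libraries of total RNA from cells labelled as genotype control or DAZAP1 knockdown; the labels give 1 cell line, no hairpin sequence, no time after infection and no statement that libraries of a group came from separate cultures, so p-values measure the spread between these libraries only. The labels describe the control once as an empty vector and once as a control sequence.

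DNA replication begins when the origin recognition complex, with CDC6 and CDT1, loads the ring-shaped MCM helicase on DNA in G1. In S phase CDC45 and the GINS complex join the ring to make the active helicase, DNA polymerases alpha, delta and epsilon copy the strands, and PCNA, the sliding clamp loaded by the RFC complex, holds the polymerases on DNA. Ribonucleotide reductase, thymidylate synthase and thymidine kinase supply the deoxynucleotides. Transcription of many of these genes is driven by E2F factors once cyclin-dependent kinases have inactivated the RB protein, and squamous carcinomas often carry lesions in this control.

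All 39 genes were above the filter on low counts and entered the test, with mean control levels from 14.2 to 380.9 CPM (a gene's counts scaled to the library's total). In the knockdown 22 of the 39 fell, 7 rose and 10 stayed short of the threshold, an adjusted p of 0.05 (quasi-likelihood test of edgeR, adjusted by Benjamini-Hochberg over 15374 genes). So 56.4% of them were called lower, against 27.4% of all genes tested, and 17.9% higher, against 26.9%. In either direction the shares were 74.4% and 54.2%. The changes were small. None of the 39 reached a 2-fold change, which 1102 of the 15374 genes tested did. Their log2 fold changes ran from −0.59 to 0.70, with a median of −0.15, against 0.002 over all genes tested. The median absolute log2 fold change was 0.221, against 0.257 over all genes tested, so the typical shift was not larger. All genes tested include many at lower levels than the 39, and the shares were not compared at matched levels. The knockdown and control values did not overlap for 29 of the 39, against 58.9% of all genes tested.

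The counts by role stand beside 27.4% lower and 26.9% higher among all genes tested. Helicase loading (37.5% lower, 25% higher) and polymerases and primase (33.3% each) lay near these shares. Of 8 genes of helicase loading 3 fell and 2 rose, of 6 genes of helicase activation 5 fell and 1 rose, and of 5 genes of the clamp and its loader 3 fell and 1 rose. Among 6 genes of polymerases and primase 2 fell and 2 rose. In nucleotide supply 3 of 4 fell and none rose, with the lowest median of the roles together with S phase entry and fork checkpoint (log2 −0.35 for both). In that last role 3 of 4 fell and none rose. In strand joining and single-strand binding 1 of 3 fell and none rose, and in chromatin assembly and maintenance methylation 2 of 3 fell and 1 rose. These role sizes are small, and the differences between roles were not tested.

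**Figure D1:**
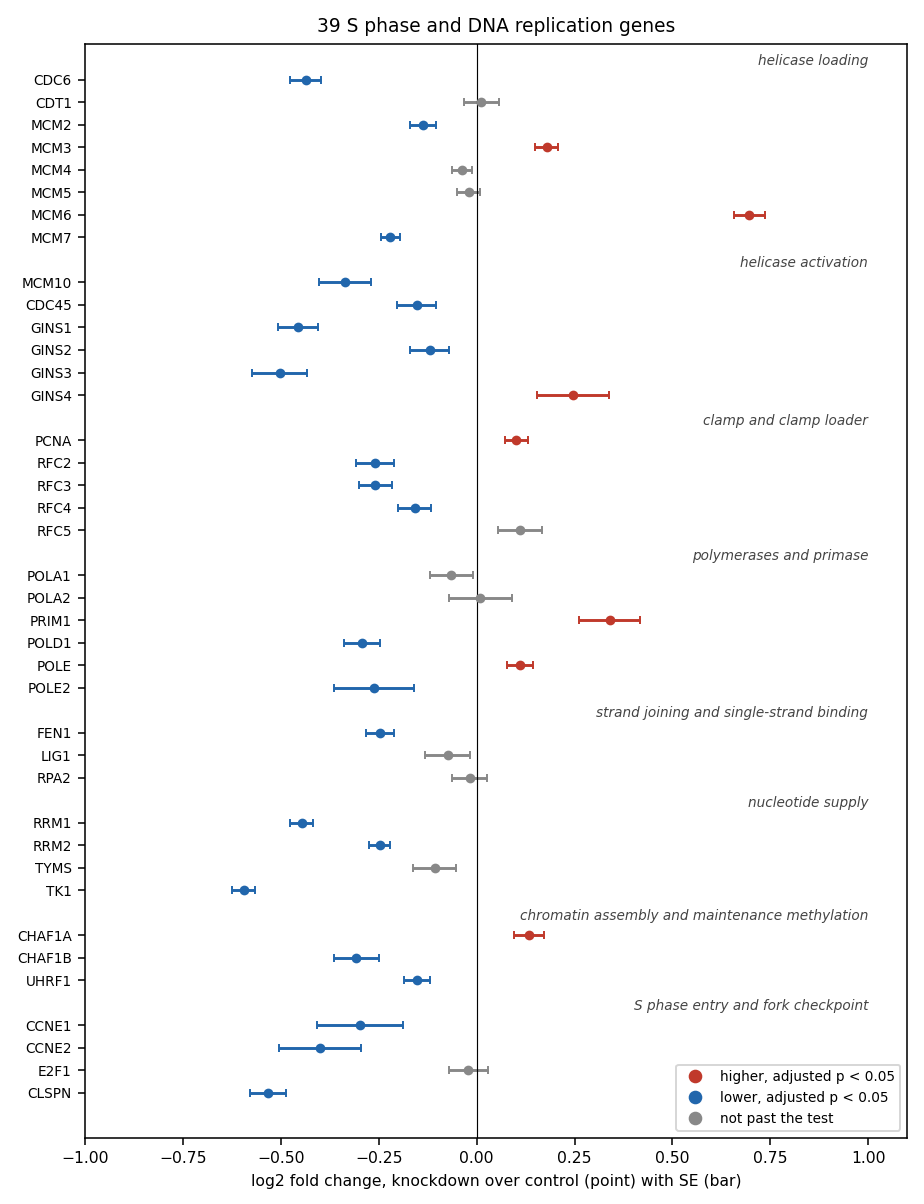
Log2 fold change of each of the 39 genes, knockdown over control (x axis, point with SE), in blocks by role (y axis), coloured by the edgeR call. MCM6 stands alone on the right at 0.70, and TK1, CLSPN and GINS3 lie farthest to the left, between −0.59 and −0.50.

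DAZAP1 itself (chromosome 19, 1407569 to 1435687, GRCh38.p13) was at 262.4, 277.9 and 256.9 CPM in the controls and at 73.6, 77.8 and 67.5 CPM after knockdown, 3.64-fold lower (log2 −1.86 ± 0.038 SE). Library totals were 16333542 to 18955230 counts. The epithelial markers, not all of them particular to squamous cells, were present and went both ways, 5 of 9 higher and 3 lower. KRT5 was at a mean of 1506 and 2147 CPM (control, knockdown) and KRT17 at 142.2 and 332.6 (log2 1.23). KRT14 (0.94), CDH1 (0.45) and KRT6A (0.16) also rose. SFN was at 847.6 and 440.9 CPM (log2 −0.94), and EPCAM (−0.09) and DSP (−0.07) fell as well. TP63, at 303.3 and 298.3 CPM, did not pass. The 9 markers summed to 4043 to 4191 CPM in control libraries and to 4633 to 4677 CPM after knockdown. The 5 leukocyte markers summed to 0.802 to 1.59 and 2.18 to 2.92 CPM, 4 fibroblast markers to 10.2 to 13.5 and 18.7 to 19.5 CPM, and 3 endothelial markers, nearly all CDH5, to 13.9 to 16.7 and 46.4 to 51.8 CPM. Their part in the results below was not tested. In bulk RNA a lower share of cells in S phase and less of a transcript per cell cannot be told apart.

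Promoters of these genes often held the E2F consensus. In the RefSeq promoter windows (250 bases before to 50 after each gene start, GRCh38.p14) 34 of the 39 genes had an entry, and 12 of them (35.3%) held TTTCGCGC or TTTGGCGC on either strand, against 2.35% of 10745 tested genes with an entry and 1.4% of all 27305. The pentamer CCAAT, searched on both strands, was in 20 of the 34 (58.8%), against 43.0% of the tested genes. A match of letters is not a binding site. The E2F letters were in 3 of the 6 genes that rose, in 6 of 21 that fell and in 3 of 7 that did not pass. CCAAT was in 6 of the 6 that rose, in 11 of 21 that fell and in 3 of 7 that did not pass, and neither split was tested. Shown are the windows of MCM6, the gene that rose by the most, of CDC6 and MCM7, helicase loading genes that fell and also hold the E2F letters, and of TK1, the gene that fell by the most and holds none. Capitals mark E2F and CCAAT matches, and the windows are chr2:135876394-135876693 (minus strand), chr17:40287629-40287928 (plus strand), chr7:100101348-100101647 (minus strand, the first of the 3 starts listed for MCM7) and chr17:78187003-78187302 (minus strand, the second of the 2 starts listed for TK1).
MCM6: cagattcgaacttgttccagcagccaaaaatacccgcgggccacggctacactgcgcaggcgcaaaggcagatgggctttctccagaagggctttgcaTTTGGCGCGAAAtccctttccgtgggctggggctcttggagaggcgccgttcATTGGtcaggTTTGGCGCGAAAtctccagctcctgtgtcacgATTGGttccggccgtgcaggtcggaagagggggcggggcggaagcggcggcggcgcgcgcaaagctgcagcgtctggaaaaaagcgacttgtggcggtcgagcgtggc
CDC6: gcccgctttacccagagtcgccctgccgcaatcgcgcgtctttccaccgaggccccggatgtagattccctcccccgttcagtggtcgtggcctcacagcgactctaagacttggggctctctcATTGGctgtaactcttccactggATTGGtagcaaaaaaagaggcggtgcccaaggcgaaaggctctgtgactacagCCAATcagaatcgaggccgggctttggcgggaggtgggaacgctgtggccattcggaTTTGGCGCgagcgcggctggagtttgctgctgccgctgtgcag
MCM7: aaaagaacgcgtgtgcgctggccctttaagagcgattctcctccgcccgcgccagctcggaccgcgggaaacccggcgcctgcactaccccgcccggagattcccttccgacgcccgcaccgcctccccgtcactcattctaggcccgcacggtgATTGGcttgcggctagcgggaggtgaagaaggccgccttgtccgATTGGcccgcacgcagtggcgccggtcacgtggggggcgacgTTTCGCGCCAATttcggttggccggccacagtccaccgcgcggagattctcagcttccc
TK1: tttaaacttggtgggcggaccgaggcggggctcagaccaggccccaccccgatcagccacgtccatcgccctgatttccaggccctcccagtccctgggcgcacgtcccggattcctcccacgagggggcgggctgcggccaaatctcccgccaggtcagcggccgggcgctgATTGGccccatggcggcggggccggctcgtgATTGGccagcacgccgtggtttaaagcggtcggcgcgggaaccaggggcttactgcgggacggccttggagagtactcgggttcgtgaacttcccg

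In the MCM6 window the E2F letters stood in 2 places, each a run in which one match on the plus strand overlapped one on the minus strand, so that 4 matches began at −152, −148, −90 and −86 from the gene start. The CDC6 match began at 8 and the MCM7 match at −9, overlapping a CCAAT match that began at −2. Genes with the same letters near the start therefore lay on both sides of 0, from MCM6 (log2 0.70) to GINS1 (−0.46).

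**Figure D2:**
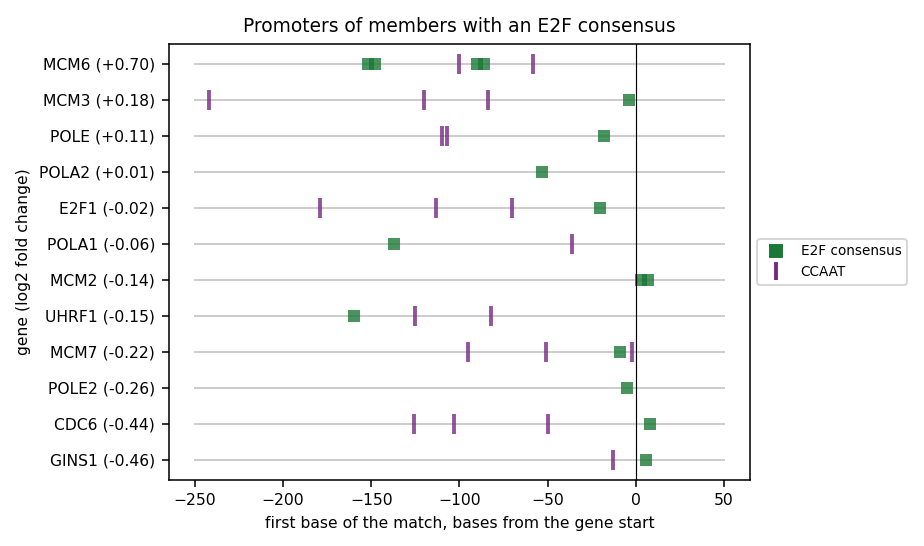
Positions of E2F consensus matches (squares) and CCAAT matches (bars) in the promoter windows of the 12 genes with an E2F match, ordered by log2 fold change (in brackets). The x axis is the first base of the match in bases from the gene start, and only MCM6 and MCM2 have more than 1 E2F match.

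Helicase loading genes moved in both directions. MCM6 (chromosome 2, 135839626 to 135876443), a subunit of the MCM ring, was at 78.0, 79.2 and 74.5 CPM in the control libraries and at 122.9, 126.6 and 126.1 CPM in the knockdown libraries. All 3 knockdown values lay far above all 3 control values, a 1.62-fold rise (log2 0.70 ± 0.039 SE, adjusted p = 4.6e-26, edgeR). The other subunit that rose was MCM3, by 0.18 on the log2 scale, from 189.7 ± 6.61 to 214.7 ± 3.82 CPM (SD over 3 libraries each). MCM7 fell from 380.9 ± 6.24 to 326.9 ± 2.66 CPM (log2 −0.22) and MCM2 by 0.14 on the log2 scale. The MCM2 call was lost in 3 of 18 alternatives, all of them fits of FPKM values, and annotated exons on the opposite strand cover 23.6% of its exons. MCM4 (−0.04) and MCM5 (−0.02) did not pass. CDC6 (chromosome 17, 40287879 to 40304657), the ATPase that recruits the ring to the origin complex, was at 119.4, 115.1 and 113.7 CPM in the control and at 84.0, 85.7 and 87.6 CPM in the knockdown. Its groups were well apart (log2 −0.44 ± 0.039 SE, adjusted p = 3.62e-16, edgeR). CDT1, the partner of CDC6 in loading, was at 74.0 ± 3.88 and 74.6 ± 1.14 CPM and did not pass.

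The 6 subunits of the MCM2 to MCM7 ring were also set against each other per length, with the deposited FPKM (fragments per kilobase of gene length, scaled to depth). The summed FPKM of the 6 was 265.0 ± 3.46 in the control and 272.9 ± 0.79 in the knockdown (SD, n = 3 each). FPKM follow library totals and leave out the scaling factors used for CPM, 0.987 to 0.988 in control and 1.01 in knockdown libraries. MCM4, for example, had means of 50.7 and 50.6 FPKM (control, knockdown) but 358.4 and 349.1 CPM. The difference between the 2 sums is therefore not read as a rise, while shares within a library do not depend on this scaling. MCM6 took 7.12, 7.10 and 6.63% of this sum in the controls and 11.0, 11.3 and 11.3% after knockdown. In the control it was the lowest of the 6, and in the knockdown it was above MCM5 (9.02%). MCM7, the highest in both groups, went from 32.3 ± 0.156 to 27.6 ± 0.227% (SD, n = 3 each), and MCM3 from 19.4 ± 0.616 to 21.8 ± 0.322%. The ratio of the highest to the lowest subunit was 4.65 in the control and 3.06 in the knockdown. For every subunit except MCM5 the shares of the groups did not overlap, at the smallest p that 3 against 3 libraries allow (exact two-sided permutation p = 0.1, adjusted p = 0.12 over the 6 subunits), while MCM5 had an exact permutation p = 0.2. The order of the subunits rests on the length the authors used, 7269 bases for MCM5 and 4136 for MCM6.

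**Figure D3:**
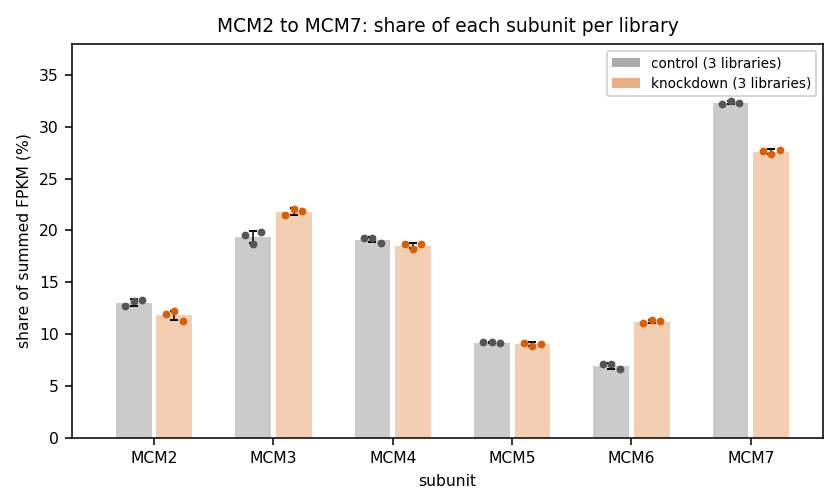
Share of each MCM2 to MCM7 subunit in their summed FPKM (y axis, percent) in control and knockdown. Bars are means, error bars the SD and points the 3 libraries per group; the share of MCM6 goes from 6.95 to 11.2% and that of MCM7 from 32.3 to 27.6%.

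Of the 6 genes that turn the loaded ring into the active helicase 5 were called lower, 2 of them, GINS2 and CDC45, with calls that depended on the setting. GINS3 (chromosome 16, 58295080 to 58406147), a subunit of the 4-part GINS complex, was at 32.4, 33.2 and 35.0 CPM in the control and at 24.5, 22.2 and 24.2 CPM in the knockdown (log2 −0.50 ± 0.070 SE, adjusted p = 3.16e-09, edgeR). GINS1 (chromosome 20, 25407673 to 25452628) was at 65.0, 69.8 and 65.2 CPM in the control and at 49.1, 47.7 and 49.1 CPM in the knockdown (log2 −0.46 ± 0.050 SE). In both genes every knockdown library lay below every control library. MCM10, which helps the helicase to start, was at 36.2, 34.1 and 37.8 CPM and at 30.4, 29.3 and 25.8 CPM, again with no overlap (log2 −0.34 ± 0.067 SE). GINS2 fell by only 0.12, and CDC45 by 0.15 with overlapping groups. The fourth GINS subunit, GINS4, rose by 0.25 on the log2 scale, from 14.8 ± 1.22 to 17.6 ± 0.191 CPM (SD over 3 libraries each). The log2 ratio of GINS4 to GINS1, a pair chosen after the values were seen and not tested, went from −2.18 ± 0.096 to −1.47 ± 0.040 (CPM, SD, n = 3 each). The GINS2 call was lost in 12 of 18 alternatives (adjusted p up to 0.231), the CDC45 call in 7 and the GINS4 call in 3, DESeq2 among them for each. GINS2 missed the threshold without control replicate 2 or 3 or knockdown replicate 2 or 3 (log2 −0.12 to −0.10), CDC45 without control replicate 1 (−0.13) or knockdown replicate 3 (−0.11), and GINS4 without control replicate 1 (0.18) or knockdown replicate 2 (0.24). Annotated exons on the opposite strand cover 23.6% of the GINS4 exons.

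**Figure D4:**
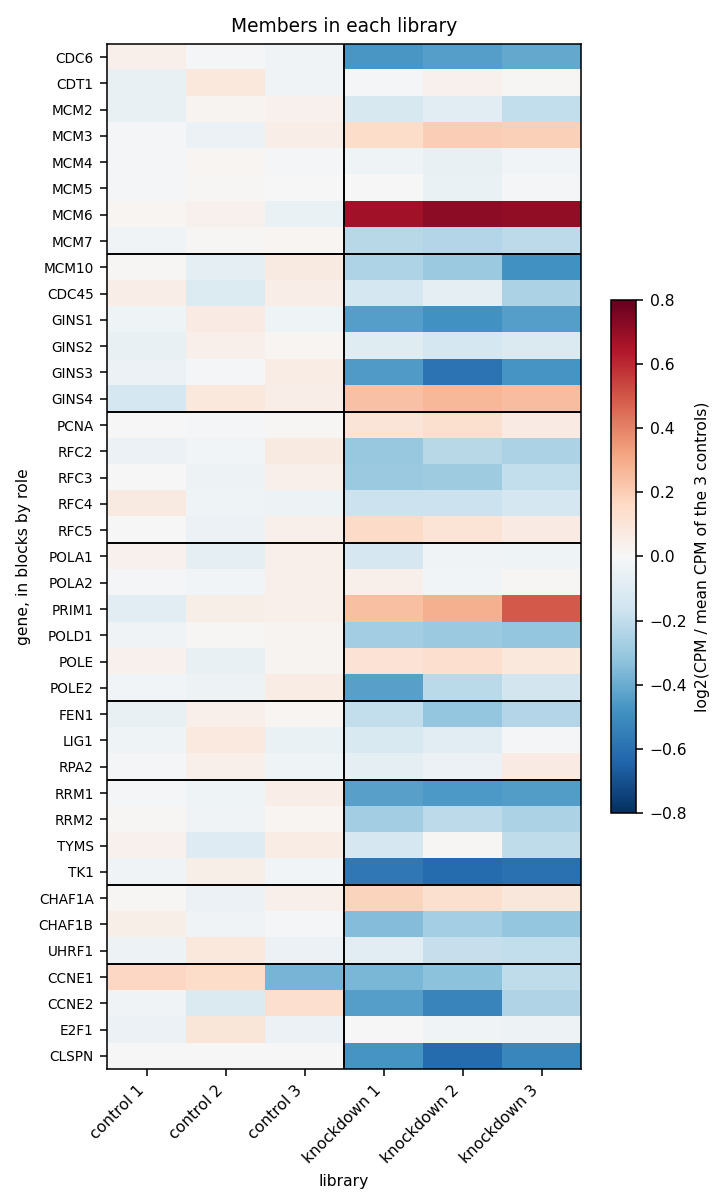
Level of each gene in each library (x axis) as log2 of its CPM over the mean of the 3 controls, in blocks by role (y axis; red higher, blue lower). The 3 knockdown columns look alike, MCM6 is the darkest red row, and CCNE1 differs among the controls, with control replicate 3 at 17.1 CPM against 24.8 and 24.5.

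Clamp and loader genes moved in different directions. PCNA rose slightly, from 199.6 ± 1.89 to 214.0 ± 4.84 CPM (SD, n = 3 each; log2 0.10). The loader's small subunits RFC2, RFC3 and RFC4 fell. RFC3 (chromosome 13, 33818069 to 33966558) was at 95.3, 93.1 and 98.4 CPM in the control and at 77.9, 78.4 and 83.4 CPM in the knockdown (log2 −0.26 ± 0.042 SE, adjusted p = 1.74e-07, edgeR). The groups did not overlap. RFC2 (−0.26) and RFC4 (−0.16) fell as well, while RFC5 was at 39.5 ± 1.19 and 42.7 ± 1.28 CPM and did not pass, although its groups did not overlap.

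Among the polymerases the catalytic subunits went different ways. POLD1, the catalytic subunit of polymerase delta, fell by 0.29 on the log2 scale, from 76.8 ± 1.46 to 62.7 ± 0.725 CPM (SD over 3 libraries each), and POLE, that of polymerase epsilon, rose from 142.2 ± 4.76 to 153.5 ± 2.75 CPM (log2 0.11). POLE2, the second subunit of epsilon, fell by 0.26. The POLE2 call was lost in 5 of 18 alternatives (adjusted p up to 0.179), among them DESeq2 and the fits without control replicate 3 (log2 −0.24) or knockdown replicate 1 (−0.18), and the POLE call in 2, with the gene length trend removed (adjusted p = 0.308) and without control replicate 2 (log2 0.08). The polymerase alpha subunits POLA1 (−0.06) and POLA2 (0.01) did not pass. PRIM1 (chromosome 12, 56731296 to 56752374), a subunit of the primase that makes the RNA primers, was at 20.4, 22.5 and 22.3 CPM in the control and at 25.6, 26.5 and 30.6 CPM in the knockdown (log2 0.34 ± 0.078 SE, adjusted p = 0.000142, edgeR). Its groups were apart, with knockdown replicate 3 the highest. PRIM2, the other primase subunit and 1 of the further genes below, fell by 0.27 on the log2 scale, with no overlap. PRIM1 shares 16.2% of its exon bases with same-strand genes, the abundant NACA among them, and POLA2 shares 35.1%, so these 2 values are uncertain.

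Of the genes that finish the lagging strand, FEN1 (chromosome 11, 61792911 to 61797238), the flap endonuclease, was at 134.5, 144.6 and 141.7 CPM in the control and at 122.3, 113.2 and 119.0 CPM in the knockdown. No knockdown value reached the controls (log2 −0.25 ± 0.036 SE, adjusted p = 1.31e-08, edgeR). LIG1, the ligase that seals the fragments (−0.07), and RPA2, a subunit of the single-strand binding protein (−0.02), did not pass.

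Nucleotide supply held the largest fall among the 39 genes. TK1 (chromosome 17, 78174091 to 78187233), the cytosolic thymidine kinase of S phase, was at 246.0, 258.6 and 247.4 CPM in the control and at 168.7, 163.6 and 165.5 CPM in the knockdown. The groups lay far apart, 1.51-fold (log2 −0.59 ± 0.029 SE, adjusted p = 4.17e-29, edgeR). RRM1 (chromosome 11, 4094707 to 4138932), the large subunit of ribonucleotide reductase, was at 252.5, 249.5 and 264.9 CPM and at 189.2, 185.8 and 187.5 CPM, also with no overlap (log2 −0.45 ± 0.029 SE). RRM2, its small and cell cycle regulated subunit, fell by 0.25 on the log2 scale, from 314.1 ± 5.07 to 264.5 ± 6.08 CPM (SD over 3 libraries each). TYMS, thymidylate synthase, was at 53.7 ± 3.30 and 49.8 ± 3.74 CPM with overlapping groups and did not pass, except without control replicate 2 (log2 −0.16) or knockdown replicate 2 (−0.17). Exons of opposite-strand genes, ENOSF1 among them, cover 46.6% of the TYMS exons, and RRM2 shares 20.2% with a same-strand gene.

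In chromatin assembly the partners of the CAF-1 complex, which places histones on new DNA, went apart. CHAF1B (chromosome 21, 36385392 to 36419015) was at 45.9, 43.6 and 43.9 CPM in the control and at 35.0, 36.8 and 36.0 CPM after knockdown (log2 −0.31 ± 0.058 SE, adjusted p = 4.9e-06, edgeR). CHAF1A rose by 0.13 on the log2 scale, from 97.8 ± 2.96 to 107.2 ± 3.10 CPM (SD over 3 libraries each). The log2 ratio of CHAF1A to CHAF1B, a pair chosen like GINS4 and GINS1 after the values were seen and not tested, went from 1.14 ± 0.051 to 1.58 ± 0.071 (CPM, SD, n = 3 each). UHRF1, which guides DNA methylation to new strands, fell by 0.15.

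Among the genes of S phase entry and the fork checkpoint, CLSPN (chromosome 1, 35720218 to 35769978), the adaptor that lets ATR activate CHEK1, was at 83.5, 83.4 and 83.1 CPM in the control and at 60.2, 54.4 and 58.1 CPM in the knockdown. The controls were nearly equal and the knockdown values all lower (log2 −0.53 ± 0.046 SE, adjusted p = 1.17e-16, edgeR). The cyclin gene CCNE2 was at 14.5, 13.7 and 16.3 CPM and at 10.9, 10.3 and 12.6 CPM with no overlap (log2 −0.40 ± 0.104 SE), and exons on the opposite strand cover 37.1% of its own. CCNE1, the other cyclin E, passed narrowly (log2 −0.30 ± 0.110 SE, adjusted p = 0.0264, edgeR) with overlapping groups, and over the other settings its adjusted p ranged from 1.46e-05 to 0.2 and missed the threshold in 10 of 18. Without control replicate 3, its lowest control, its log2 fold change was −0.46, and without control replicate 1 or 2 or knockdown replicate 1 or 2 it missed the threshold (−0.28 to −0.21). E2F1, the transcription factor that activates many of these genes, was at 60.4 ± 3.54 and 59.5 ± 0.832 CPM and did not pass.

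A further 104 genes of replication and S phase were listed, of which 103 were tested. In these, 33 (32.0%) fell, 27 (26.2%) rose and 43 did not pass, with a median of −0.03 on the log2 scale, against 27.4% and 26.9% of all genes tested. The group counts below stand beside these same shares of all genes, and differences between the groups were not tested. POLE3 and POLE4, the histone-fold subunits of polymerase epsilon, fell from 188.3 ± 3.18 to 110.7 ± 1.23 CPM (log2 −0.77) and from 69.2 ± 3.42 to 40.0 ± 1.82 CPM (−0.79; SD, n = 3 each). RPA1, the large subunit of the single-strand binding protein, fell by 0.48, while RPA2 did not pass.

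Among 10 further licensing genes 3 fell and none rose, namely ORC6 (log2 −0.59) and ORC2 (−0.45) of the origin recognition complex and MCM8 (−0.52), which acts in recombination. The other 7 did not pass, so 30% were called in either direction, against 54.2% of all genes tested. Of 9 firing genes 3 fell and 3 rose: DONSON (−0.47) and TOPBP1 (−0.23), which help to assemble the active helicase, fell, and DBF4 (0.26) and DBF4B (0.27), activators of the CDC7 kinase, rose. CDC7 itself, outside the rule for named genes, fell (−0.22). In a group of 17 tested polymerase, primase and clamp loader subunits 7 fell and 1 rose, with DSCC1 of an alternative clamp loader at −0.42. Of 11 fork protection genes 3 fell, WDHD1 (−0.49), TIPIN (−0.51) and HUS1 (−0.41), and 2 rose, RAD17 (0.22) among them.

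Of 15 further nucleotide supply genes 8 fell and 5 rose. The purine synthesis enzyme PAICS fell by 0.60 on the log2 scale, from 275.9 ± 11.6 to 182.4 ± 3.65 CPM (SD over 3 libraries each), the thymidylate kinase DTYMK by 0.46 and the nucleotide pool cleaner DCTPP1 by 0.43. SAMHD1, which breaks down deoxynucleoside triphosphates, rose from 52.9 ± 1.87 to 77.0 ± 1.40 CPM (log2 0.54). Of 9 chromatin assembly genes 4 rose and 3 fell, HELLS at −0.52 against CDCA7 at 0.36, ASF1B at 0.22 and RBBP4 at 0.13.

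The G1 to S control genes held the largest changes of these further lists, with 12 of 32 higher and 6 lower. Among the 12 were CDKN1C, near 0 at 0.610 and 1.22 CPM (control, knockdown) with overlapping groups (adjusted p = 0.0365, edgeR), and E2F2, which passed narrowly (adjusted p = 0.0496, edgeR). CDKN1A, the p21 inhibitor of cyclin-dependent kinases, fell by 1.02 on the log2 scale, from 119.2 ± 2.25 to 58.9 ± 2.10 CPM (SD over 3 libraries each), and CDKN1B, the p27 inhibitor, rose from 35.0 ± 2.93 to 58.3 ± 2.73 CPM (log2 0.74). The D-type cyclins moved in opposite directions, CCND3 from 76.1 ± 2.85 to 37.2 ± 1.73 CPM (−1.03) and CCND2 from 26.4 ± 0.619 to 53.7 ± 1.49 CPM (1.02). CCND1, outside the rule for named genes, had a log2 fold change of −0.05 and did not pass.

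Mitosis genes, markers of a later phase of the cycle, had a different balance: 16 of 29 tested rose (55.2%), 3 fell (10.3%) and 10 did not pass, with a median of 0.10. Of all genes tested 26.9% rose and 27.4% fell. CENPF (0.54), TOP2A (0.44), HMMR (0.83) and KIF20A (0.60) rose. The 3 that fell, outside the rule for named genes, were KIF23 (−0.39), FOXM1 (−0.26) and MAD2L1 (−0.22). Summed over the list, mitosis genes were at 4042 to 4115 CPM in control and at 4548 to 4596 CPM in knockdown libraries, and the 39 replication genes at 4254 to 4313 and 3897 to 3906. Both sums kept the groups apart, in opposite directions; the difference between the lists was not tested, and MKI67, a marker of all cycling phases and also outside that rule, had a log2 fold change of −0.03 and did not pass.

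**Figure D5:**
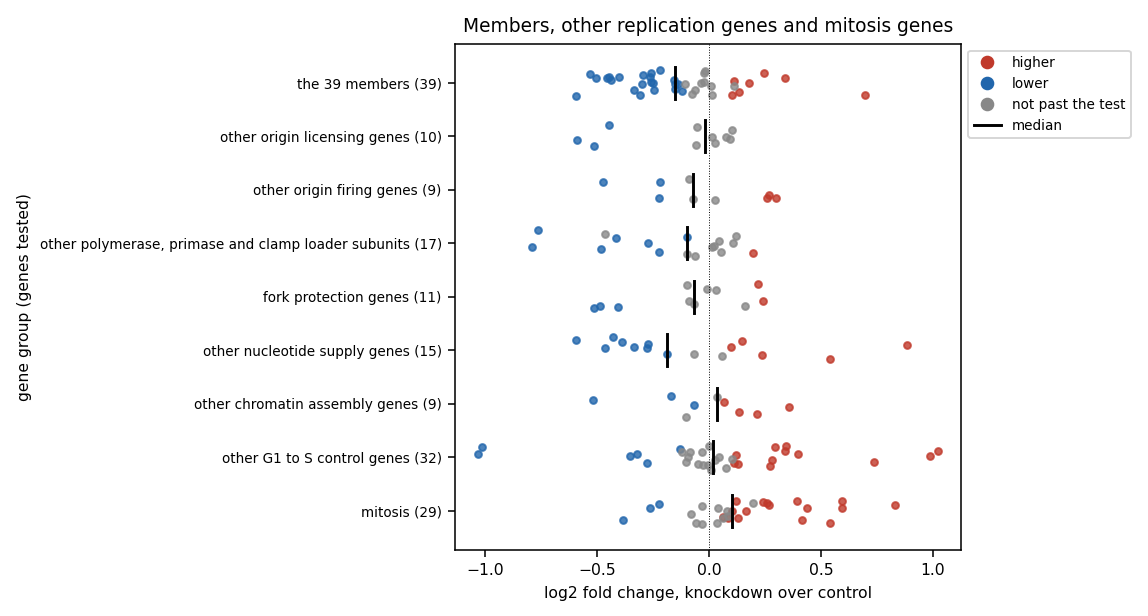
Log2 fold change of every tested gene (x axis, 1 point a gene, spread vertically at random) in the 39 members, 7 further groups of replication genes and mitosis genes (y axis, with the number tested). Colours give the edgeR call and black bars the medians, which run from −0.19 in other nucleotide supply genes to 0.10 in mitosis genes.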

How the data were processed

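RNA was extracted with TRIzol from Cal27 cells and its libraries sequenced with Illumina chemistry, as the labels' protocols state. The authors deposited raw counts and FPKM for 30947 genes in 6 libraries. Per the submitters' processing notes, Bowtie and GRCh38.p13 were used; counter, annotation release and strandedness: not given in the sources used here. Reads of overlapping genes therefore cannot be told apart. Columns headed N2 and SH2 were taken as control and knockdown by prefix and replicate number; the labels do not spell out these prefixes.

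The count test was edgeR 4.0.16 under R 4.3.3 (filterByExpr, minimum count 10; 15374 genes kept; TMM; quasi-likelihood F test, group as the only term; Benjamini-Hochberg adjustment over all genes, threshold 0.05), and the procedure was tested on simulated data. CPM uses TMM-scaled totals of the kept genes, and SE is the absolute log2 fold change over the root of F. Totals of 16333542 to 18955230 counts set the precision. Alternatives used DESeq2 1.42.0, limma 3.58.1 on voom and FPKM values, other scalings and filters, a gene length trend, the replicate block and each library left out. Promoters were RefSeq's and exon overlaps came from GENCODE release 29. For some genes its exon lengths differ from those behind the deposited FPKM, as for RRM2 (5323 against 9155 bases) and PRIM1 (2437 against 2856). The overlap shares therefore describe the GENCODE exons, which may not be those that were counted. Protein motifs were not searched, since no protein sequences were used here.

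Members and gene lists were chosen with earlier results of these data known. Library values are given for DAZAP1 and, within each role, for genes that passed with an absolute log2 fold change of at least 0.3, or else the gene with the smallest adjusted p. In the further lists up to 4 genes with the smallest adjusted p are named by this rule, and a few others are also named.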

Additional observations from a re-analysis of the deposited data

How the results depend on the processing

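Of the 39 genes, 27 kept their side of the threshold under all 18 alternatives, and 22 of them also their direction; CDT1, MCM5, POLA2, RPA2 and E2F1, none of which passed, had values on both sides of 0. No gene that passed changed sign. The other 12 were MCM2, MCM4, CDC45, GINS2, GINS4, RFC5, POLA1, POLE, POLE2, TYMS, UHRF1 and CCNE1, all within 0.3 of 0 on the log2 scale. DESeq2 kept 24 of the 29 calls and upper-quartile scaling 25. Each fit of FPKM values kept 24 and lost 5, those of MCM2, CDC45, GINS2, UHRF1 and CCNE1, all genes that fell in the fit reported. Upper-quartile scaling lost CDC45, GINS2, POLE2 and CCNE1, which also fell there. The FPKM fits and upper-quartile scaling gained RFC5 as a gene that rose, so lower calls were fewer in them. With each library left out, 6 to 7 of the 39 rose and 20 to 21 fell, 3721 to 3905 of all genes rose and 3911 to 4104 fell, 23 to 27 of the other replication genes rose and 33 to 35 fell, 13 to 15 mitosis genes rose and 3 to 5 fell (5 without control replicate 2), and DAZAP1 was at −1.91 to −1.81. With upper-quartile scaling 57.3% of all called genes were higher, and with library totals 55.0%, against 49.5% in the fit reported. Same-numbered libraries deviated with correlations of −0.0063 to 0.0028 and differently numbered ones with −0.0171 to 0.0175, over all genes tested. No pairing by number was seen, although 3 libraries per group cannot exclude one. With the replicate block the 39 held 7 higher and 22 lower genes, and the same 29 calls. The cause of each lost call was not tested.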

Other observations

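Some genes of the lists stood near 0 in both groups. PRC1, a cytokinesis gene, was at 1.96 CPM in the control and 1.92 in the knockdown, NUSAP1, a spindle gene, at 0.717 and 0.424, and RNASEH2A, a subunit of ribonuclease H2, at 0.286 and 0.640. Exons of another gene on the same strand cover 57.6%, 62.2% and 30.8% of their exon bases in GENCODE release 29. CHTF8, at 0.719 and 0.509 CPM, has no such overlap there. CDKN1C, the p57 inhibitor, counted above as higher, was at 0.610 and 1.22 CPM, also with none. The levels of the 3 genes with an overlap are uncertain, and its part in them was not tested.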
